A study of Saccharomyces cerevisiae with 210 samples.

Results

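The glutathione peroxidase mutants gpx1 and gpx2 of budding yeast were compared in how their RNA levels answered a peroxide. The response of a mutant was its level in cultures given the peroxide minus its level in untreated cultures at 20 min, and the comparison set the response of gpx2 against that of gpx1. It rests on 12 arrays of the 210 in the series, 3 cultures for each of 4 groups: gpx1 untreated, gpx1 with CHP, gpx2 untreated and gpx2 with CHP. All 5656 named genes of the array were tested. The peroxide is given in the labels as CHP, read here as cumene hydroperoxide, and was used at 0.19 mM. Cultures grew in fermentors to mid-exponential phase and gave samples at 0, 3, 6, 12 and 20 min. The first of these preceded the oxidant according to the series' design text. Both mutants are labelled with the strain BY4743, a diploid laboratory strain, and with the words gpx1 mutant or gpx2 mutant. The kind of allele, and whether the 6 cultures of a mutant began from 1 clone, are not stated in the sources at hand. Wild-type cultures of the same label, 3 untreated and 3 with CHP at 20 min, are used as a reference level only.

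Glutathione peroxidases reduce hydrogen peroxide and organic hydroperoxides, and the yeast enzymes also act on peroxides of membrane lipids. Yeast has 3 genes of this family. GPX2 on chromosome II is a target of the transcription factor Yap1, which drives most of the defence against peroxides, while GPX1 on chromosome XI is known for induction by glucose starvation. The third, HYR1 (also called GPX3) on chromosome IX, encodes the sensor that oxidizes and so activates Yap1. All values below are log2 expression values made by RMA, in which a difference of 1 is a 2-fold difference. A gene is said to have risen, fallen or differed where limma gave it a Benjamini-Hochberg adjusted p-value below 0.05, with the adjustment made over all 5656 genes.

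The levels of the mutated genes matched the genotype labels. Over its 30 arrays the gpx2 mutant had GPX2 at 3.67 ± 0.25 (SD), between 3.22 and 4.34. Over the 30 gpx1 arrays GPX2 lay between 6.24 and 10.69, so the ranges did not overlap. GPX1 was dim everywhere: it averaged 4.13 ± 0.18 (SD, 30 arrays) in gpx1, 5.10 ± 0.35 in gpx2 and 5.39 ± 0.40 in wild type. Its range of 3.87 to 4.51 in gpx1 overlapped that of gpx2, 4.36 to 5.92, which makes it a weaker check of the label.

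The gpx2 cultures stood apart in another respect: they held RNAs of mating type a that a diploid with both mating types represses. Ploidy was not measured. In such a diploid, the a1 and alpha2 proteins together silence the haploid-specific genes, and alpha2 silences the a-specific genes. Before CHP, all 6 a-specific genes and all 12 haploid-specific genes examined were higher in the 6 gpx2 cultures than in the 6 gpx1 cultures. Of all genes, 1.33% were higher and 2% lower in that comparison. None of the 4 alpha-specific genes (STE3, MF(ALPHA)1, MF(ALPHA)2 and SAG1) and none of 4 pheromone-induced genes (FUS1, FUS2, AGA1 and PRM1) differed. STE2, the receptor for alpha-factor, lay between 6.29 and 8.80 in the 30 gpx2 arrays and between 2.92 and 4.27 in the other 180 arrays of the series. MFA2, which encodes the a-factor pheromone, lay between 10.03 and 12.81 in gpx2 and between 6.25 and 8.11 in the others. In both genes the gpx2 arrays were all above every other array. IME4, whose sense RNA is made in diploids, ran the other way, at 4.06 ± 0.19 (SD, 30 arrays) in gpx2 and 5.20 ± 0.11 in gpx1. Loss of GPX2 and this expression state are shared by all gpx2 cultures and cannot be told apart, so "gpx2" below means the cultures that carry that label.

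**Figure D1:**
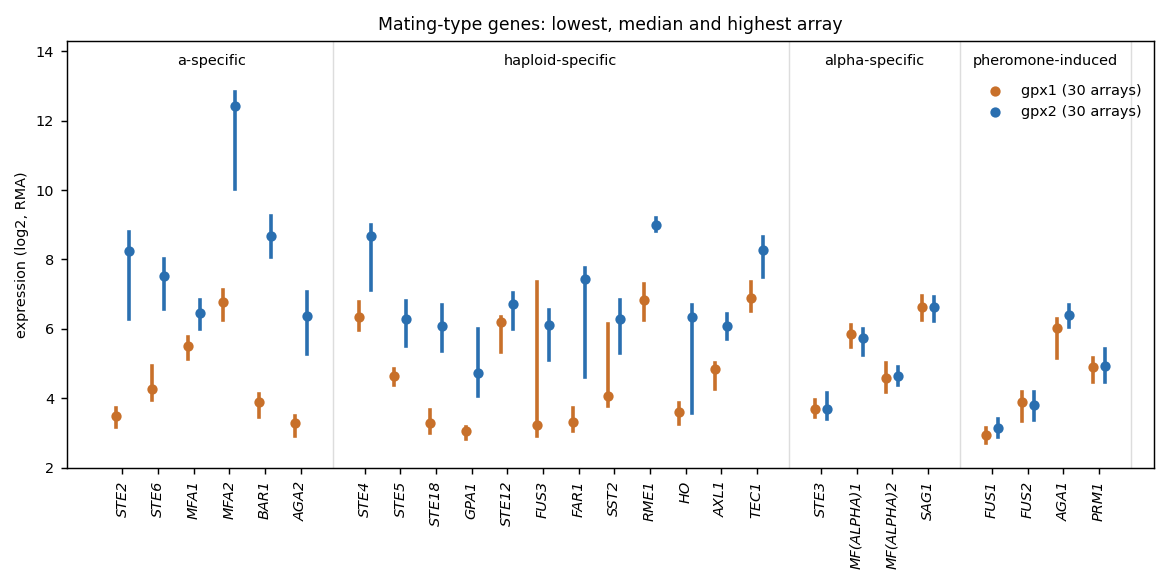
Expression (log2, RMA) of 26 mating-type genes in the 30 gpx1 arrays (orange) and the 30 gpx2 arrays (blue) over all times and both arms. Points are medians and lines run from the lowest to the highest array; the a-specific genes of gpx2 lie above those of gpx1 without overlap, and the alpha-specific and pheromone-induced genes overlap.

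How far the 2 sets of arrays stood apart differed between the classes. For 14 of these genes (6 a-specific and 8 haploid-specific) all 30 gpx2 arrays lay above all 30 gpx1 arrays, which held for 0.46% of all genes. BAR1, the protease that degrades alpha-factor, had a median of 8.68 in gpx2 and 3.88 in gpx1. RME1, a repressor of meiosis that is repressed in diploids, had medians of 8.98 and 6.82. The 4 haploid-specific genes with overlapping ranges were STE12, FUS3, SST2 and HO. For FUS3 and SST2 the overlap came from 1 array, that of gpx1 CHP culture 2 at 20 min, which read 7.36 and 6.14. Without it the gpx1 arrays reached 3.58 and 4.30, below the lowest gpx2 arrays at 5.11 and 5.31. MET17 averaged 12.23 in gpx2 and 12.25 in gpx1, and LYS2 averaged 9.23 and 9.37. Those genes carry the markers by which the haploid parents of BY4743 differ.

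One of the 12 arrays stood apart. On the array of gpx1 CHP culture 2 at 20 min, 67 genes were more than 2 log2 units above the mean of the other arrays of its group, with a median of 7.31 there and 3.87 in the others. The highest such count among the other 11 arrays was 4. The genes are of mixed kinds and 3 of them are among the 24 sporulation genes listed. The 6 genes called in the difference of responses were also called without this array, and no other gene was. Leaving out gpx1 CHP culture 1 instead gave 32 calls, and leaving out gpx1 CHP culture 3 gave 19. In both cases the array that stands apart is 1 of only 2 left in its group.

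Most genes that changed with CHP in one mutant also changed in the other, in the same direction. At 20 min, 1288 genes rose and 1489 fell in gpx1, which is 22.8% and 26.3% of all genes. In gpx2 1358 rose and 1363 fell, 24% and 24.1%. Of the genes that rose, 1100 were shared, 85.4% of the gpx1 list and 81% of the gpx2 list. Of the genes that fell, 1239 were shared, 83.2% of the gpx1 list and 90.9% of the gpx2 list. Without the array that stands apart, 1136 genes rose and 1230 fell in gpx1. The responses of the 5656 genes correlated with Pearson's r = 0.96 and Spearman's rho = 0.931. This describes genes, which are not independent replicates, and the 2 responses share no array.

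The test of the difference of responses called 6 genes, 0.106% of all genes, and all 6 were lower in gpx2. No gene was higher, and 141 genes had an unadjusted p below 0.05 (46 higher, 95 lower). One of the 6 is GPX2 itself. The other genes are HO, MFA2, STE2, STE4 and STE6, each a gene of mating or of mating type. Over all genes the median difference was 0.04, with quartiles at -0.08 and 0.15, and the median SE was 0.24. For 5215 genes, 92.2%, the 95% confidence interval of the difference lay within a 2-fold change in either direction. For the remaining genes, with 3 cultures per group, the interval reached beyond 2-fold.

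**Figure D2:**
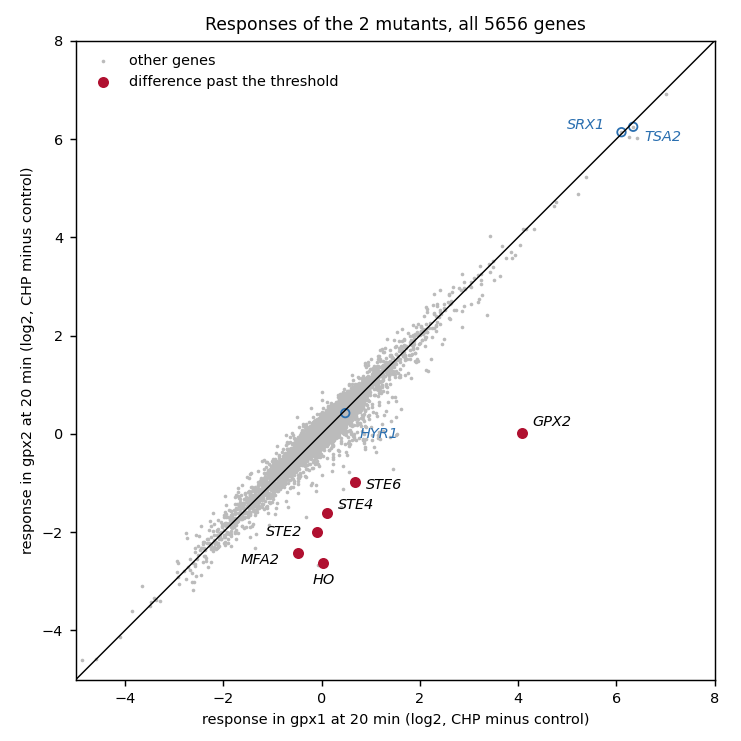
Response to CHP at 20 min (log2, CHP minus untreated) in gpx1 (horizontal) and gpx2 (vertical) for 5656 genes, 1 point per gene, with the line of equal response. The 6 red points are the genes whose responses differed; all lie below the line, while SRX1, TSA2 and HYR1 (circled) lie near it.

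GPX2 gave the largest difference of the 5656 genes. Its level was 6.58, 6.37 and 6.49 in the untreated gpx1 cultures and 10.69, 10.66 and 10.33 in those with CHP. Levels in gpx2 were 3.78, 3.73 and 3.53 untreated and 3.95, 3.58 and 3.58 with CHP. The arms were far apart in gpx1 and overlapped in gpx2, where the gene is mutated. The rise in gpx1 was 4.08, or 16.9-fold, and 3.90 in wild type. The difference of responses was -4.06 (SE 0.33, adjusted p = 1.08e-20).

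GPX1, the reverse case, has a much smaller response. The gpx2 values were 4.72, 5.17 and 4.92 untreated and 5.55, 5.92 and 5.90 with CHP, so the arms did not overlap. Levels in gpx1 were 4.08, 3.93 and 4.07 untreated and 4.24, 3.98 and 3.89 with CHP, and the arms overlapped. GPX1 rose by 0.85 in gpx2 (1.81-fold, adjusted p = 0.000405), and its change was 0.44 in wild type. The difference of responses of 0.85 (95% interval 0.24 to 1.45) had an unadjusted p of 0.00618 and did not pass adjustment over all genes (adjusted p = 1).

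HYR1 rose by similar amounts in both mutants. It was 9.89, 9.83 and 9.67 in untreated gpx1 and 10.24, 10.29 and 10.31 with CHP. Its gpx2 levels were 9.90, 9.63 and 9.74 untreated and 10.23, 10.20 and 10.09 with CHP. The CHP cultures lay above the untreated ones in both mutants, and the rises were 0.48 and 0.42. The interval of the difference, -0.40 to 0.28, keeps it well within 2-fold.

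The genes next to the mutated ones had no called difference of response. TCD2 and PAN3, which flank GPX1, had differences of 0.09 and -0.10. ALG7 and ISW1, which flank GPX2, had differences of -0.23 and 0.34.

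HO, the endonuclease gene of mating-type switching, had the largest difference after GPX2. The gpx2 cultures read 6.16, 6.60 and 6.20 untreated and 3.83, 3.60 and 3.66 with CHP. The gpx1 values were 3.57, 3.61 and 3.58 untreated and 3.56, 3.50 and 3.78 with CHP. With CHP the gpx2 cultures thus came down to about the level that gpx1 held in both arms. That level lay below 4.35, the median level of the probe sets that name no gene. A fall in gpx1 would be hard to see there. In bulk RNA, fewer cells that make an RNA and less of it per cell cannot be told apart. The fall in gpx2 was 2.62 on the log2 scale, or 6.16-fold (SE 0.16), and the difference of responses was -2.65 (SE 0.23, adjusted p = 1.67e-18).

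The pheromone and receptor genes of a cells came down as well but stayed above gpx1. STE2 was 8.54, 8.24 and 8.55 in untreated gpx2 and 6.29, 6.47 and 6.56 with CHP. Its gpx1 levels were 3.41, 3.59 and 3.33 untreated and 3.23, 3.32 and 3.48 with CHP. All gpx2 cultures exceeded all gpx1 cultures, and only in gpx2 were the arms separate, by 2.00 on the log2 scale. The gpx1 levels were again below 4.35, where a fall would be hard to see. The difference of responses was -1.91 (SE 0.20, adjusted p = 5.55e-14).

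MFA2 was 12.52, 12.63 and 12.61 in untreated gpx2 and 10.26, 10.03 and 10.19 with CHP, a 5.36-fold fall. The gpx1 cultures read 6.92, 6.99 and 6.63 untreated and 6.40, 6.46 and 6.25 with CHP, and there too it fell, by 0.47. The arms were separate in both mutants, and the difference between the falls was -1.95 (SE 0.26, adjusted p = 5.52e-09).

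STE6, the membrane transporter that exports a-factor, was the only gene of the 5656 that rose in one mutant and fell in the other. Levels in gpx1 were 4.23, 4.23 and 4.20 untreated and 4.94, 4.90 and 4.87 with CHP. Levels in gpx2 were 7.68, 7.50 and 7.78 untreated and 6.62, 6.80 and 6.58 with CHP. It rose by 0.68 in gpx1 (adjusted p = 0.00127) and fell by 0.98 in gpx2 (adjusted p = 3.07e-06), with no overlap of the arms in either. The change in wild type was 0.35, and the difference of responses was -1.67 (SE 0.27, adjusted p = 3.86e-06).

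STE4 encodes the beta subunit of the G protein that passes on the pheromone signal. It was 8.59, 8.75 and 8.86 in untreated gpx2 and 7.14, 7.13 and 7.12 with CHP. The gpx1 values were 6.41, 6.44 and 6.55 untreated and 6.52, 6.45 and 6.77 with CHP. The arms were separate in gpx2 and overlapped in gpx1, and the difference of responses was -1.71 (SE 0.18, adjusted p = 5.55e-14).

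**Figure D3:**
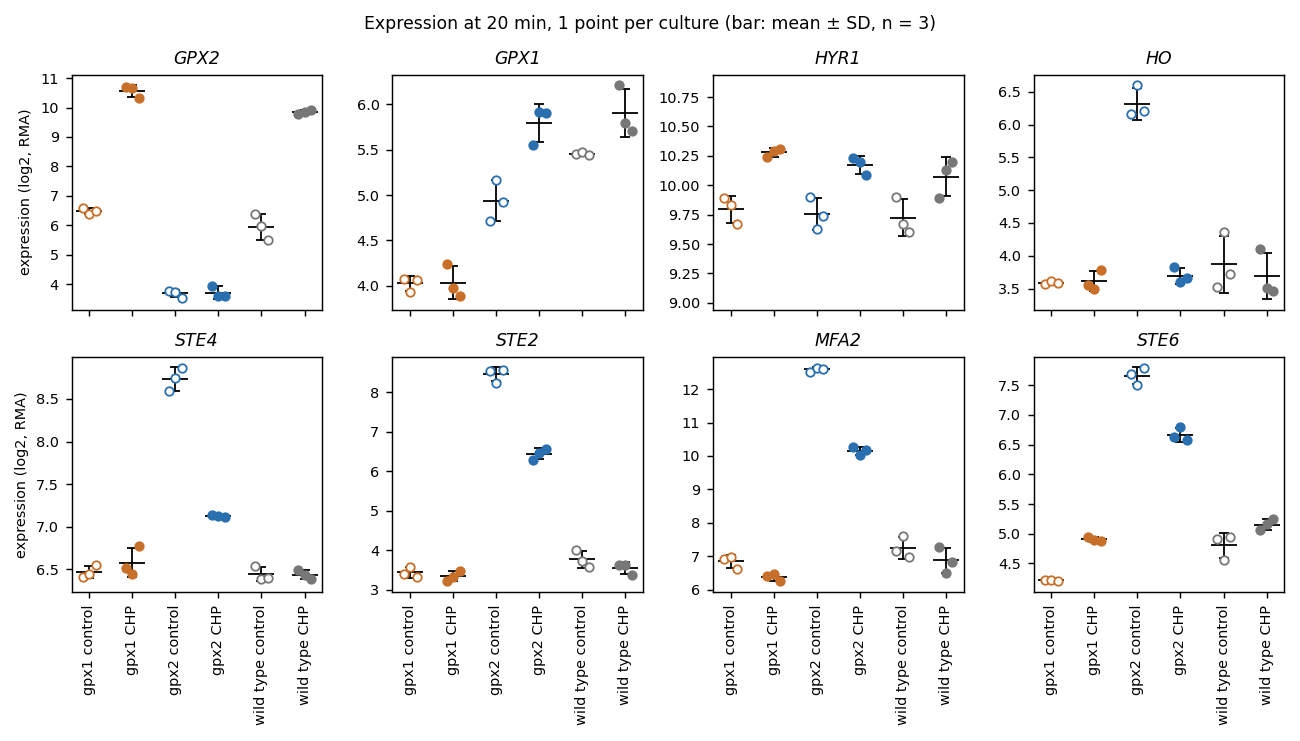
Expression at 20 min (log2, RMA) of the 3 family members and the 5 other called genes, 1 point per culture, open for untreated and filled for CHP, with mean ± SD (n = 3). GPX2 separates the arms in gpx1 and wild type, and HO, STE4, STE2, MFA2 and STE6 are high in untreated gpx2 and lower in gpx2 with CHP.

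FAR1, which arrests the cell cycle in response to pheromone, narrowly missed the threshold. It was 7.32, 7.48 and 7.57 in untreated gpx2 and 4.60, 4.75 and 4.98 with CHP, a 6.40-fold fall. Its gpx1 levels were 3.50, 3.27 and 3.16 untreated and 3.42, 3.21 and 3.09 with CHP. The gpx2 arms were far apart and the gpx1 arms overlapped, at levels below 4.35 where a fall would be hard to see. The difference of -2.60 had an adjusted p of 0.051 with an SE of 0.63. It passed in 5 of 24 alternatives, and its adjusted p ran from 1.56e-14 in the fit to the 60 arrays of both mutants to 1 in the fit to the 42 arrays at 20 min. It was 0.168 with the culture as a random block and 0.121 without the array that stands apart. Without that array and the 20 min array of grx2 mutant CHP culture 2, it was 1.75e-08, with a difference of -2.62. The SD of FAR1 within the 4 groups compared lay between 0.129 and 0.194. The 180 arrays that are not gpx2, which also enter the SE, reached 10.36. FUS3, the kinase of the pheromone pathway, had a difference of -2.17 (adjusted p = 0.276) that rested on the array that stands apart. That array read 7.36 where the other gpx1 CHP cultures read 3.12 and 3.19, and without it the difference was -0.77.

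Haploid and mating genes did not act as 1 block. Of the 26 listed, 11 fell in gpx2 and 1 rose, and in gpx1 5 fell and 2 rose, beside the shares of all genes given above. Those 2 were STE6 and FUS3, and FUS3 was high in gpx1 only on the array that stands apart. Of the 6 a-specific genes, 5 fell in gpx2, and MFA1 did not pass (0.10). AGA2, a subunit of the a-agglutinin, fell by 1.05 in gpx2 and BAR1 fell by 0.45. The haploid-specific gene that rose in gpx2 was STE18, which encodes the gamma subunit of the same G protein as STE4. It went from 5.59, 5.85 and 6.45 untreated to 6.35, 6.68 and 6.42 with CHP (0.52, adjusted p = 0.0148), and these arms overlapped. RME1 (0.14), STE5, a scaffold protein (0.40), and AXL1, a protease that matures a-factor (-0.43), did not pass in gpx2. Over the list the median difference of responses was -0.13, with a lower quartile of -1.59, beside 0.04 over all genes.

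The difference built up over time. At 0 min, when no culture had received CHP, no gene was called by limma (0% of all genes), and 48 genes had an unadjusted p below 0.05. GPX2 alone was called at 3 min (0.0177%), GPX2 and HO at 6 min (0.0354%). At 12 min MFA2, STE2 and STE4 joined them (0.0884%), and STE6 followed at 20 min. These samples come from the same cultures, so the times are not independent of each other.

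GPX2 in gpx1 with CHP reached 8.61 at 3 min and 9.90 at 6 min, and then 10.45 and 10.56 at 12 and 20 min, while untreated gpx1 stayed between 6.44 and 6.50. HO in gpx2 with CHP was 6.26 at 3 min, 4.90 at 6 min, 3.79 at 12 min and 3.70 at 20 min. It was thus at its low level by 12 min. STE2 in the same cultures was 8.25, 7.72, 6.85 and 6.44 at these times and MFA2 12.39, 11.97, 10.79 and 10.16. Both were still declining between 12 and 20 min. FAR1 was 7.51, 6.16, 5.21 and 4.78.

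**Figure D4:**
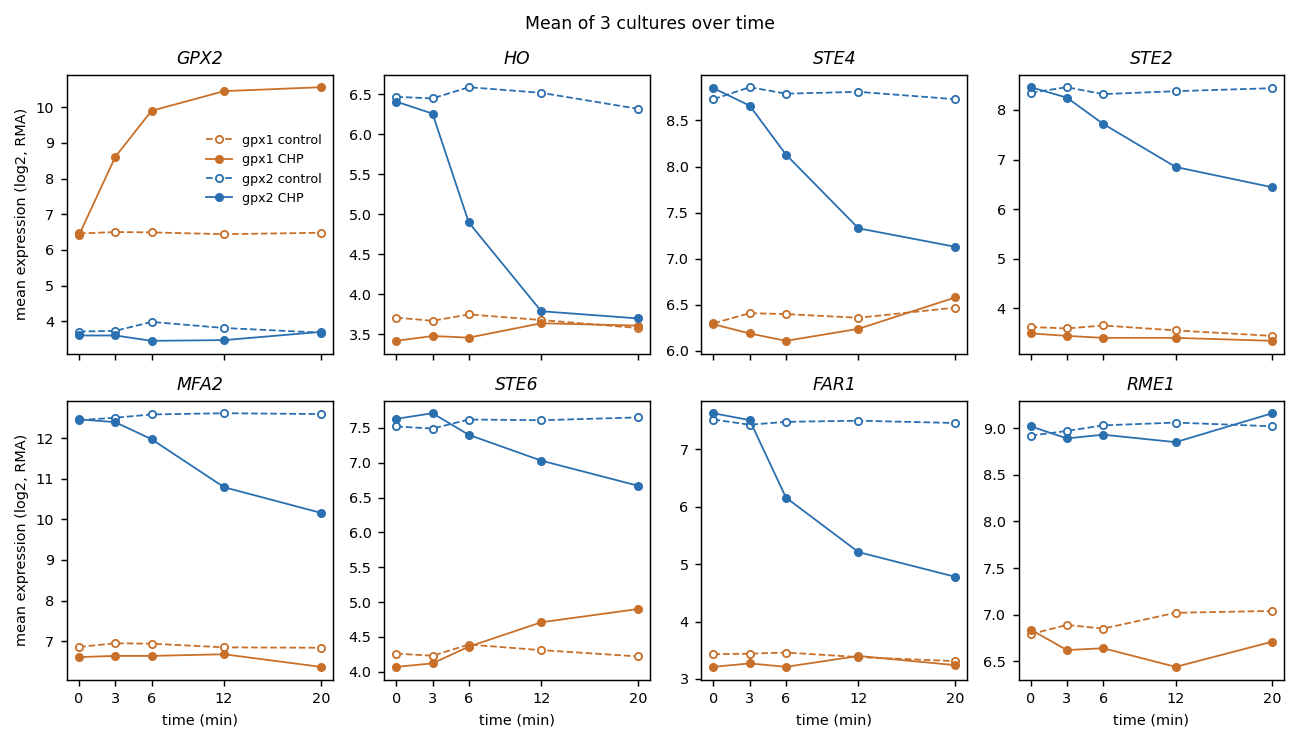
Mean expression of 3 cultures (log2, RMA) against time for gpx1 (orange) and gpx2 (blue), untreated (dashed, open) and with CHP (solid, filled). GPX2 climbs in gpx1 from 3 min; HO, FAR1, STE4, STE2, MFA2 and STE6 decline in gpx2 with CHP after 3 min, and RME1 stays near 9 in gpx2.

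The peroxide defence itself was not called different in any gene except GPX2. Of 34 Yap1 target genes on the array, 30 rose in gpx1 and 29 in gpx2, beside 22.8% and 24% of all genes. The median responses were 2.22 and 2.20. The median difference over the list was 0.03. For 32 of the 34 the interval lay within 2-fold, near the 92.2% of all genes. The gene of sulfiredoxin, which repairs overoxidized peroxiredoxins, is an example. SRX1 was 6.32, 6.13 and 6.05 in untreated gpx1 and 12.09, 12.57 and 12.15 with CHP. The gpx2 values were 6.38, 6.47 and 6.46 untreated and 12.49, 12.52 and 12.72 with CHP. Its responses of 6.10 and 6.14 gave a difference of 0.03 (95% interval -0.87 to 0.94). The CHP cultures overlapped between the mutants, and the interval lay just within 2-fold.

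Among thioredoxin and glutathione genes no difference of response was called. TSA2, an inducible peroxiredoxin, rose by 6.34 in gpx1 and 6.25 in gpx2, with an interval of the difference of -0.56 to 0.37. TRX2, a thioredoxin, rose by 1.56 and 1.58, and the interval was -0.34 to 0.39. TRR1, the thioredoxin reductase, had one of the larger differences. It was 10.91, 11 and 10.86 in untreated gpx1 and 12.95, 12.98 and 13.11 with CHP. Its gpx2 levels were 10.77, 10.65 and 10.64 untreated and 13.07, 13.17 and 13.02 with CHP. The CHP cultures overlapped between the mutants, and the difference of 0.31 (95% interval 0.01 to 0.62, unadjusted p = 0.0429) did not pass adjustment. GSH1, the first enzyme of glutathione synthesis, rose by 1.65 and 1.59, and GLR1, glutathione reductase, by 1.14 and 1.10. Of the 29 genes of the glutathione and glutaredoxin list, 20 rose in each mutant, beside 22.8% of all genes in gpx1 and 24% in gpx2. For 25 of the 29 the interval lay within 2-fold, beside 92.2% of all genes. All 6 genes of the superoxide dismutase and catalase list rose in each mutant, with medians of 2.25 and 2.55. That list holds SOD1, SOD2, CTA1 and CTT1, and also CCS1 and CCP1, which encode neither enzyme.

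Genes of the wider stress response were also called in similar numbers. Of all genes, 22.8% rose and 26.3% fell in gpx1, and 24% rose and 24.1% fell in gpx2. Of 41 general stress genes of the Msn2/4 group, 34 rose in gpx1 and 35 in gpx2, with medians of 1.19 and 1.36 and a median difference of 0.16. DDR2, a stress-induced gene, had the largest positive difference among them, with responses of 3.42 and 4.02 (difference 0.61, unadjusted p = 0.0292, adjusted p = 1). The interval of the difference lay within 2-fold for 27 of the 41 genes, beside 92.2% of all genes. In each mutant 31 of 32 proteasome genes rose, with medians of 0.62 and 0.68. Ribosome biogenesis genes fell in 79 of 81 cases in gpx1 and 80 in gpx2, with medians of -1.76 and -1.77. Without the array that stands apart the gpx1 median was -1.62 and the median difference changed from -0.04 to -0.18. NOP16, a ribosome biogenesis factor, gave -0.81 with that array and -0.57 without it, and NOP12 gave -1.06 and 0.19. Neither passed with all arrays, and NOP12 changed sign.

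Cell-cycle genes fell in both mutants. Of 18 genes of the G2/M group, 16 fell in gpx1 and 15 in gpx2, beside 26.3% and 24.1% of all genes. The medians were -1.26 and -0.94. The differences were positive for 16 of the 18, beside 3301 of all 5656 genes. They were also positive for 35 of the 41 Msn2/4 genes and 26 of the 32 proteasome genes. The G2/M median was 0.30 (0.25 without the array that stands apart), with 4 genes at an unadjusted p below 0.05 and none after adjustment. SWI5, a transcription factor of late mitosis, was 6.40, 6.17 and 6.39 in untreated gpx1 and 4.91, 4.42 and 5.08 with CHP. The gpx2 cultures read 6.13, 6.15 and 6.48 untreated and 5.17, 5.56 and 5.41 with CHP. All gpx2 CHP cultures lay above the gpx1 CHP cultures, and the difference of 0.64 had an unadjusted p of 0.0101 (adjusted p = 1). CLB5, an S-phase cyclin gene, had a difference of 0.47.

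Genes with the smallest unadjusted p among positive differences, GPX1 apart, were KNH1, AIR2, KEL2, AIM20, STE18, HOF1, GCR1 and GLG1, and none passed adjustment. KNH1, a gene of cell wall glucan synthesis, had the lowest of these p-values (0.00155, adjusted p = 0.673). It was 7.15, 7.10 and 7.11 in untreated gpx1 and 5.91, 5.75 and 6.17 with CHP. Levels in gpx2 were 7.39, 7.34 and 7.18 untreated and 6.82, 6.82 and 6.64 with CHP. It fell in both mutants, and the gpx2 cultures with CHP lay above those of gpx1. STL1, a glycerol transporter gene, was the remaining gene named among negative differences. Its value of -1.46 (adjusted p = 0.471) came to -0.37 without the array that stands apart, which read 6.48 where the others of its group read 3.03 and 3.41.

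Biotin synthesis and transport genes had the lowest list median, -1.02 over 6 genes, with none called. Their levels varied from culture to culture. BIO5, a transporter of a biotin precursor, was 5.49, 6.08 and 6.40 in untreated gpx1 and 5.40, 5.27 and 8.50 with CHP. The gpx2 values were 5.83, 8.92 and 5.68 untreated and 5.64, 4.95 and 5.35 with CHP. A single culture in each mutant was high, in opposite arms, and the difference of -1.90 had a 95% interval of -4.05 to 0.25.

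**Figure D5:**
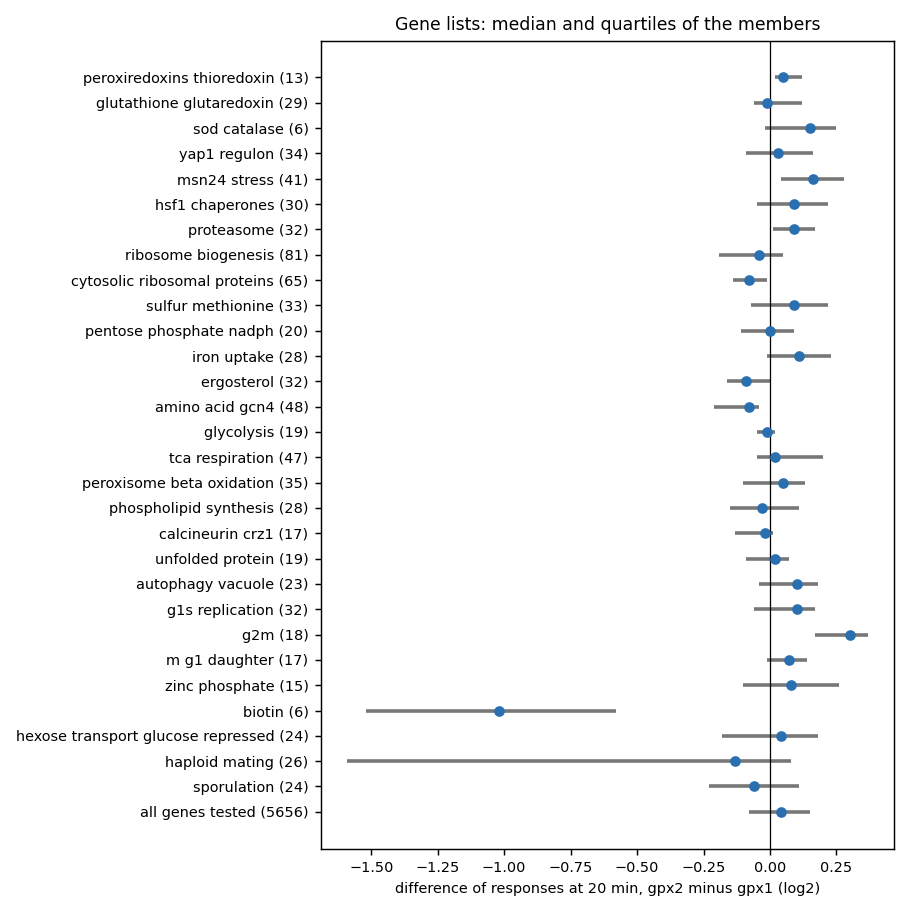
Difference of responses at 20 min (log2, gpx2 minus gpx1) for 29 gene lists and for all genes tested. Points are medians, bars run between the quartiles, and the number of genes is in brackets; most lists centre near 0, with the low bar of the mating list and the low median of the biotin list apart from the rest.

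Levels were also compared within each arm. In untreated cultures at 20 min, 37 genes were higher in gpx2 (0.654% of all genes) and 6 lower (0.106%). Of the 37, 17 are on the haploid and mating list. In CHP cultures 48 were higher (0.849%) and 47 lower (0.831%), and 15 of the higher genes are on that list. HO was higher in untreated gpx2 by 2.74 (adjusted p = 1.37e-32) and was not called in CHP cultures, where the difference was 0.08. STE4 was higher by 2.27 untreated and by 0.55 with CHP, and STE2 by 5 and 3.09.

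Most of the 47 lower genes of the CHP arm were called only with the array that stands apart. Without it, 8 of the 47 were called, among them GPX2, HPF1, YDR034C-A, IME4 and COS8, and 22 of the 47 are among its 67 high genes. The count of the arm became 52 (35 higher, 17 lower). The split of this arm also moved with scaling: 50.5% of the calls were higher as deposited, 61.6% after quantile normalization and 65.6% after centring each array on its median. Before CHP the share of higher calls was 39.9% as deposited, 69.9% after quantile normalization and 66% after centring. Differences of at least 2-fold before CHP were 23 higher and 5 lower.

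At 20 min, 38 genes were called in the same direction in untreated and in CHP cultures, listed mating genes among them. Some genes outside the mating list differed in both arms and at 0 min by similar amounts and so had no called difference of response. Examples follow. HPF1, a cell wall mannoprotein gene, was 6.49 ± 0.15 (SD, 30 arrays) in gpx2 and 9.82 ± 0.23 in gpx1. NEJ1, a haploid-specific regulator of DNA end joining, was 5.50 ± 0.30 in gpx2 and 3.27 ± 0.17 in gpx1. RDH54, a recombination gene, was 6.34 ± 0.37 and 4.57 ± 0.27. HPF1 was thus far lower and the 2 DNA repair genes higher in gpx2 throughout.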

How the data were processed

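The deposited table holds log2 expression values from Affymetrix Yeast Genome S98 arrays, made by the authors with RMA, per the submitters' processing notes. The sources at hand state neither its version nor its settings. The number of arrays limits the precision. Of 9335 probe sets, 60 are controls, 6504 name 1 gene, 328 several and 2443 none in the platform table. The probe set with the highest mean was kept for each of 315 genes with several, leaving 5656 genes. Names and neighbours came from RefSeq R64. Coordinates are left out because the array has no stated build.

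From these values, limma 3.58.1 in R 4.3.3 was fitted to 210 arrays in 70 groups of 3 cultures (140 residual degrees of freedom), with Benjamini-Hochberg adjustment over all genes and a threshold of 0.05. The contrast was gpx2 (CHP minus control) minus gpx1 (CHP minus control) at 20 min. Replicates are cultures. Samples of 1 culture at different times were treated as independent, with a correlation of 0.264 between them, and a random block for culture was an alternative. Other alternatives were scaling, arrays in the fit, left-out cultures, a filter on dim genes, the probe set rule, empirical Bayes settings, a minimum fold, a 0 min baseline and the replicate number as a block. The code was tested on simulated data.

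Named genes are those called and, in a direction where fewer were called, the 8 with the smallest p, GPX1 and GPX2 apart. Also named are the family with its neighbours and up to 2 per gene list, from which the text describes a selection. Other list members, the checks of mating type and the genes that differ in both arms were chosen after their values were seen. The comparison and the gene lists were chosen with earlier results of these data known.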

Additional observations from a re-analysis of the deposited data

Results flagged for a closer look

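The responses of 6 genes to CHP were different in the 2 mutants at 20 min by the test of the difference itself (limma, gpx2 minus gpx1, 12 cultures). GPX2 differed by -4.06. The genes of mating or mating type were HO at -2.65, MFA2 at -1.95, STE2 at -1.91, STE4 at -1.71 and STE6 at -1.67. The mating genes were higher in gpx2 than in gpx1 in every culture before CHP was added, so their difference goes with a difference in starting level, and its part in the result was not tested. In the 30 gpx1 arrays HO and STE2 reached at most 3.86 and 3.73, levels at which a fall would be hard to see.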

How the results depend on the processing

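The count of genes with different responses at 20 min was 7 after quantile normalization, in fits to the 12 or to the 60 arrays of both mutants, and without 2 arrays. In each of these the added gene was FAR1. The count was 4 without dim genes, since that filter removed HO and STE2, and 6 in all other settings that kept every culture. Leaving out 1 culture gave 6 to 32. GPX2, MFA2, STE4 and STE6 passed in all 25 alternatives, and HO and STE2 in the 24 that held them. The highest adjusted p-value for any of the 6 was 0.00069. With the replicate block the count was 6. Equal numbers did not pair the cultures (correlations between -0.277 and 0.175), and the block could not be fitted within a single arm. The count at 0 min was 2 after centring.

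In CHP cultures the count of 95 became 295 in the fit to the 60 arrays, 32 in the fit to the 42 arrays at 20 min, 63 without dim genes and 42 with a 2-fold minimum. It was 52 without the array of gpx1 CHP culture 2, 61 without that array and grx2 CHP culture 2, and 52 to 156 with 1 culture left out. Untreated cultures gave 187 in the fit to the 60 arrays against 43. Before CHP the count of 188 became 28 with a 2-fold minimum. The fits to the 42 arrays, and those without the arrays that stand apart, were chosen after seeing the data.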
